A study of Homo sapiens with 9 samples.

Results

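STAT transcription factors, the kinase JAK2 and the SOCS feedback inhibitors were followed across P493-6 B cells labelled with 3 levels of Myc expression. The group holds 10 genes, STAT3, STAT4, STAT5A, STAT5B, STAT6, JAK2, SOCS1, SOCS2, SOCS3 and CISH, out of 19775 genes with a single symbol on the arrays. All probe sets with 1 of these symbols as their only symbol were taken, which gave 30 of 54675 probe sets. The genes were chosen by name, with earlier results of these data known.

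Cytokine receptors have no kinase of their own, and a JAK kinase bound to the receptor phosphorylates both the receptor and a STAT protein. Phosphorylated STAT proteins pair, enter the nucleus and switch on genes that include the SOCS family and CISH. The SOCS proteins then bind the receptor or the kinase and recruit a ubiquitin ligase, which closes a negative feedback loop. In B cells, STAT6 is best known downstream of interleukin 4, STAT3 downstream of interleukins 10 and 21, and STAT5A and STAT5B downstream of receptors that use the interleukin 2 receptor chains. Arrays measure RNA, so the phosphorylation on which this pathway runs was not measured.

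P493-6 is an established human B-lymphocyte line, known for carrying tetracycline-repressible MYC together with an estrogen-dependent form of the viral factor EBNA2. Total RNA was hybridised to 9 single-colour Affymetrix arrays, 4 labelled high Myc, 3 labelled low Myc and 2 labelled no Myc, and the stated comparison is of expression at these levels. The labels name no agent, dose, time or culture for any group, and all groups are the same line. Nothing says that the replicates came from separate cultures, so a p-value reflects only how these arrays vary, and that variation may be technical.

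Median intensity was 75.3 to 80.3 per array, and arrays correlated at 0.976 to 0.992 within groups and at 0.917 to 0.982 between groups across genes. MYC had intensities of 11326 to 15404 on high Myc arrays and 1443 to 2526 on low Myc arrays. In the no Myc group, replicate 2 had 416, while the library labelled no Myc replicate 1 had 2803 and so exceeded all 3 low Myc arrays. This library goes against its label. Leaving out either no Myc array leaves 1 array in that group. A call lost without this library thus cannot be told apart from one lost to fewer arrays. Calls of single genes or list counts that changed without it are given beside them. High Myc replicate 2 also differed from the other high Myc arrays on several genes of this pathway, and it had the lowest MYC intensity of its group. It was the highest of the 4 high Myc arrays for 5 of the 10 genes, against 23.2% of all genes. The share of genes over 0.5 log2 units from the mean of the other high Myc arrays was 7.68% for this array and 2.78% to 6.65% for the others. An outlier test on the gap over the range of the 4 high Myc arrays found 0 outliers in the 30 probe sets of the 10 genes. The 3' minus 5' log2 difference of GAPDH, a sign of RNA quality, was 0.03 to 0.24 on high Myc arrays, 0.01 to 0.15 on low Myc arrays, and 0.25 and 0.42 on no Myc arrays. The same difference of ACTB did not set the no Myc arrays apart, at -0.05 to 0.19 on high Myc arrays, -0.07 to 0.02 on low Myc arrays, and 0.0039 and -0.011 on no Myc arrays. Their part in the results was not tested.

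The labelled cell type was checked against marker lists. All 7 measured B-cell markers had a mean log2 above 7, and their summed intensity was 8839 to 16567 on high Myc arrays, 10409 to 12470.0 on low Myc arrays and 24216 to 31809 on no Myc arrays. Of these 7 markers, 5 fell in high Myc against no Myc, 4 fell in low Myc against no Myc and 1 fell in high Myc against low Myc. Without the library labelled no Myc replicate 1 these counts were 1, 2 and 0, and in high Myc against low Myc the call was lost in 8 of the 9 fits with an array left out. Plasma-cell markers summed to 3248 to 9270 on high Myc arrays, 1719 to 3449 on low Myc arrays and 6292 to 6342 on no Myc arrays. Of these 6 markers, XBP1 rose in high Myc against no Myc, and JCHAIN, the joining chain of antibodies, fell in low Myc against no Myc and rose in high Myc against low Myc. All 3 of these calls were lost without either no Myc array. The sums of the T and NK cell list lay at 746 to 952 in high Myc, 812 to 909 in low Myc and 832 to 864 in no Myc. The myeloid sums were 243 to 279, 239 to 268 and 263 to 266 in the high, low and no Myc arrays, with all 7 markers under a mean log2 of 7. The erythroid and platelet sums were 554 to 594, 591 to 622 and 602 to 628 in the same order of groups, and those of fibroblasts and epithelium were 932 to 1127, 893 to 1015 and 1009 to 1053. In these last 4 lists limma called 0 genes in any comparison, and at most 1 gene per list and comparison had an unadjusted p under 0.05. The B-cell and plasma-cell lists moved with the groups, and their part in the results was not tested.

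In high Myc against no Myc, JAK2, STAT3, STAT5B, SOCS1 and SOCS2 fell, and none of the 10 genes rose. That is 5 of 10 called lower, where 9.0% of all genes were called lower, 14.2% higher and 23.2% in either direction. The median log2 difference was -0.38 over the 10 genes and -0.01 over all genes. In low Myc against no Myc, JAK2 fell while STAT5A and SOCS2 rose, where 19.8% of all genes were called, 11.3% higher and 8.55% lower. In high Myc against low Myc, STAT5A and SOCS2 fell and none rose, where 3.60% of all genes were called, 2.33% higher and 1.27% lower. The medians over the 10 genes were -0.26 for low Myc against no Myc and -0.60 for high Myc against low Myc, against 0.00 over all genes in both. The 3 comparisons share arrays, so they are not independent of each other. The plot of intensities by array shows all 10 genes.

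**Figure D1:**
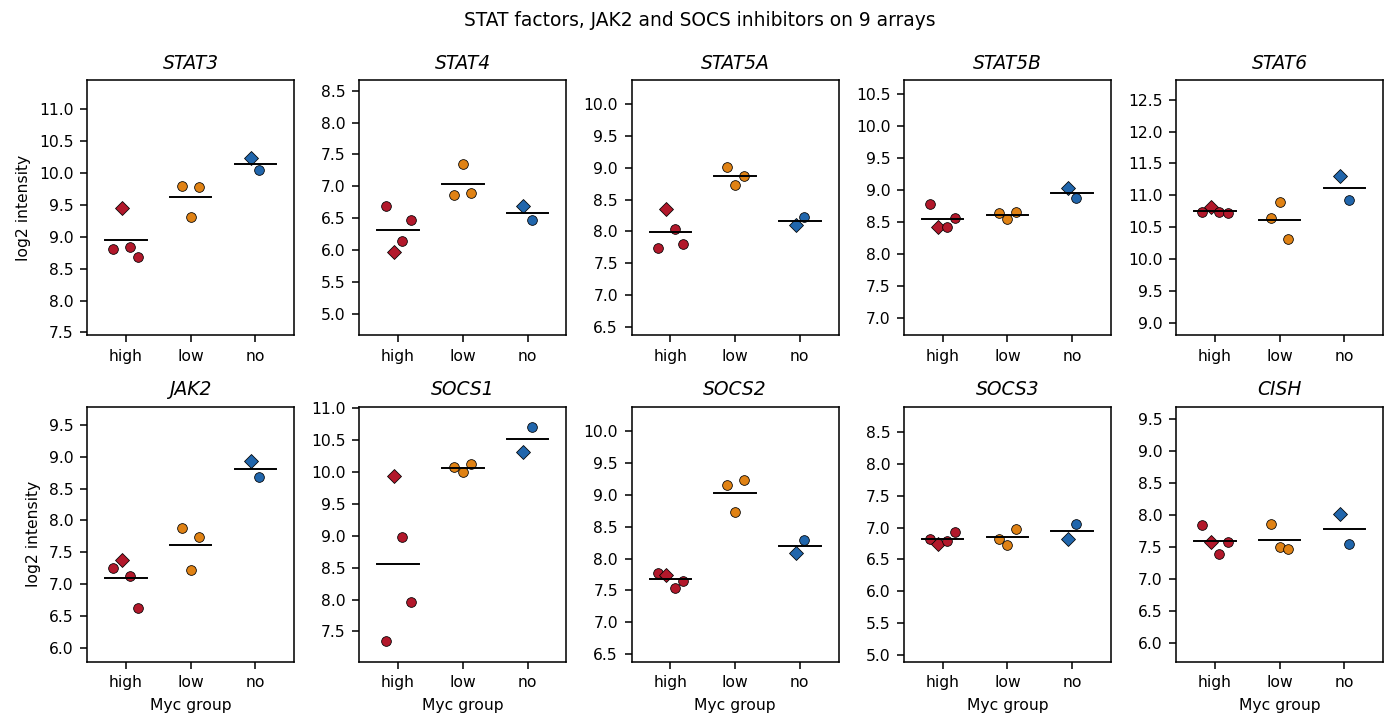
Intensity of the 10 genes on each array on a log2 axis, with high Myc arrays on the left, low Myc in the middle and no Myc on the right of each panel. Bars are group means, diamonds mark high Myc replicate 2 and the library labelled no Myc replicate 1, and every panel spans the same number of log2 units, so that SOCS1 and JAK2 are seen to vary most and SOCS3 least.

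JAK2, the kinase bound to receptors for growth hormone, erythropoietin and several interleukins, was lowest in high Myc. Its intensity was 152, 166, 141 and 98.9 on the high Myc arrays, 237, 149 and 214 on the low Myc arrays, and 491 and 409 on the no Myc arrays. Both no Myc arrays lay above all 7 others, while the high and low Myc ranges overlapped. CD3D, a marker from the T and NK cell list, read 115 to 139 on the high Myc arrays. The presence of JAK2 RNA there is thus not shown, and the size of its fall is not certain. JAK2 was 3.27-fold lower in high than in no Myc, a log2 difference of -1.71 ± 0.24 (SE), with an adjusted p of 0.000966 from limma. The group means of log2 intensity were 7.10 ± 0.33 (SD, n = 4) in high Myc, 7.62 ± 0.35 (n = 3) in low Myc and 8.81 ± 0.19 (n = 2) in no Myc. In RNA of a whole culture, fewer cells that express a gene and less of its RNA per cell cannot be told apart. The call held with each array left out in turn, at differences of -1.84 to -1.55. JAK2 was also 2.28-fold lower in low than in no Myc (log2 difference -1.19 ± 0.25, adjusted p 0.00993). If the library labelled no Myc replicate 1 was left out, that difference was -1.06 and was not called (adjusted p 0.0956). High Myc differed from low Myc by -0.52, with a 95% interval of -0.99 to -0.04, and was not called (adjusted p 0.252).

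The 3 probe sets of JAK2 all read lower in high than in no Myc. Beside the one that stands for the gene, a second probe set gave 28.3 to 33.5 on high Myc arrays, 34.0 to 42.4 on low Myc arrays, and 136 and 158 on no Myc arrays. It was called lower in both comparisons with no Myc in the fit over all probe sets. Its high Myc values had a mean log2 under 5 and are not shown to be above background, so no size is given. The third had -1.32 for high Myc against no Myc, which was called, and -0.82 for low Myc against no Myc, which was not (adjusted p 0.0686). None of the 3 was called between high and low Myc.

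STAT3, which carries signals of interleukins 6, 10 and 21, also fell in high Myc. Its intensity was 448, 697, 457 and 411 in high Myc, 887, 638 and 880 in low Myc, and 1200.1 and 1059.9 in no Myc. The high Myc arrays all lay under the no Myc arrays, and replicate 2 was the single high Myc array above the lowest low Myc array. Mean log2 intensity was 8.94 ± 0.34 (SD, n = 4) in high Myc, 9.63 ± 0.27 (n = 3) in low Myc and 10.14 ± 0.13 (n = 2) in no Myc. STAT3 was 2.29-fold lower in high than in no Myc (log2 difference -1.20 ± 0.22, adjusted p 0.00407), and the call held with each array left out in turn, with an adjusted p of at most 0.0495. Of its 4 probe sets, 3 were called lower in this comparison, at -1.20, -0.80 and -0.76, and the fourth had -0.34 and was not called. The median over the 4 gave -0.78, which was called (adjusted p 0.00917). Between high and low Myc the difference was -0.69 (adjusted p 0.0972), not called. Without high Myc replicate 2 it was -0.86 and was called (adjusted p 0.0123). Low Myc against no Myc gave -0.51, not called (adjusted p 0.196).

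STAT5A, a carrier of interleukin 2 family signals, was highest in low Myc. It had intensities of 213, 327, 264 and 223 in high Myc, 514, 422 and 469 in low Myc, and 275 and 301 in no Myc. All 3 low Myc arrays lay above all 6 others, and the high Myc and no Myc ranges overlapped. STAT5A had only 1 probe set, so this order of groups could not be compared on another. Mean log2 intensity was 7.98 ± 0.28 (SD, n = 4) in high Myc, 8.87 ± 0.14 (n = 3) in low Myc and 8.17 ± 0.09 (n = 2) in no Myc. HBB, a marker from the erythroid and platelet list, read 202 to 256 on the high Myc arrays. The presence of STAT5A RNA there is thus not shown. STAT5A was 1.85-fold lower in high than in low Myc (log2 difference -0.88 ± 0.15, adjusted p 0.0200). It was 1.62-fold higher in low than in no Myc (0.70 ± 0.18, adjusted p 0.0252). High Myc differed from no Myc by -0.19, with a 95% interval of -0.58 to 0.21. Both calls were lost in some fits with 1 array left out. The differences themselves stayed at -1.01 to -0.80 and at 0.63 to 0.77 over all 9 such fits. The first was lost on leaving out replicate 1, 3 or 4 of high Myc or replicate 1 of low Myc, at differences of -0.90 to -0.80 and adjusted p values of 0.0525 to 0.0809. The second was lost on leaving out replicate 1 of low Myc (0.63, adjusted p 0.0807), the library labelled no Myc replicate 1 (0.63, with adjusted p 0.168) or no Myc replicate 2 (0.76, adjusted p 0.0823).

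STAT5B, the close relative of STAT5A, showed another order of groups. Its intensities were 439, 342, 342 and 380 in high Myc, 398, 374 and 402 in low Myc, and 521 and 469.5 in no Myc. Both no Myc arrays were above all others. STAT5B was 1.32-fold lower in high than in no Myc (log2 difference -0.40 ± 0.12, adjusted p 0.0405), close to the threshold. The call was lost in 6 of 9 fits, those leaving out replicate 2, 3 or 4 of high Myc, replicate 1 of low Myc or either array labelled no Myc, at -0.48 to -0.33 and adjusted p values of 0.0607 to 0.271. All 5 probe sets of STAT5B had negative differences in high Myc against no Myc, from -0.52 to -0.20, and 2 of them were called. The probe set that stands for STAT5B carries the suffix used where probes may match several transcripts, so signal of a related transcript cannot be told apart from STAT5B. High Myc and low Myc differed by -0.06, with a 95% interval of -0.31 to 0.18.

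STAT6, which carries interleukin 4 signals, was not called in any comparison. It had intensities of 1715, 1807, 1714 and 1684 in high Myc, 1599.9, 1912 and 1269 in low Myc, and 2520 and 1938 in no Myc. Both no Myc arrays lay above all others. Its differences were -0.35 for high Myc against no Myc (adjusted p 0.195) and -0.49 for low Myc against no Myc (adjusted p 0.0867). With quantile normalization repeated on the deposited values they were -0.56 and -0.58, and both were called (adjusted p 0.00434 and 0.00537). STAT4, which carries interleukin 12 signals, had intensities of 103, 62.8, 70.6 and 88.4 in high Myc, 116, 164 and 119 in low Myc, and 103 and 88.9 in no Myc. The low Myc arrays were above all others, and STAT4 too was not called in any comparison. STAT4 had only 1 probe set. The difference between high and low Myc was -0.72, with a 95% interval of -1.15 to -0.29 and an adjusted p of 0.0798. CD3D, a marker from the T and NK cell list, read 108 to 139 on the same arrays, so the presence of STAT4 RNA is not shown.

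**Figure D2:**
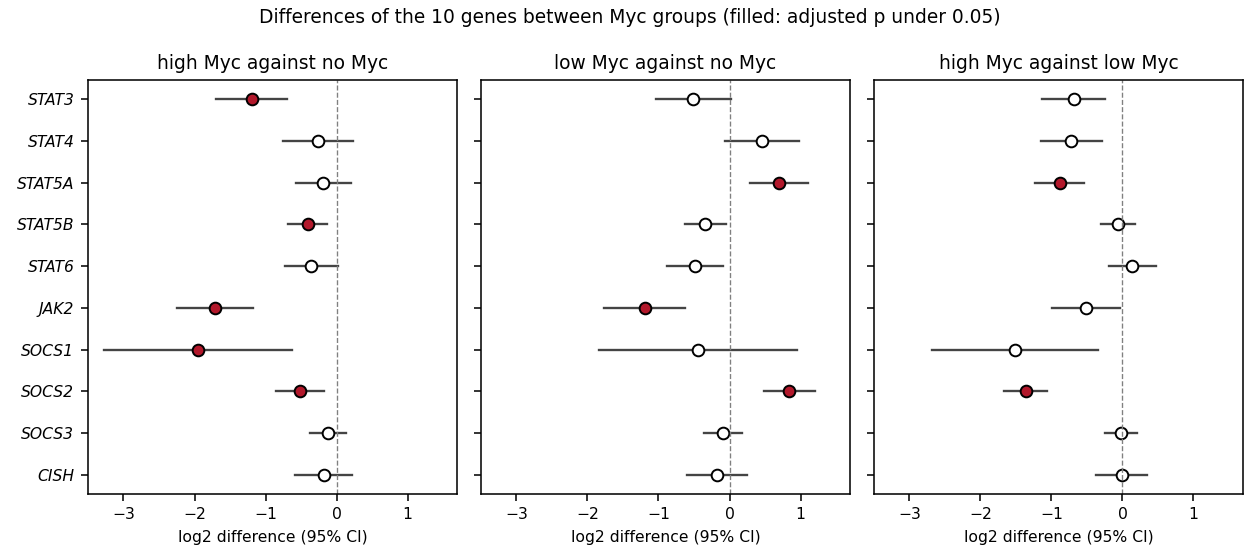
Log2 differences of the 10 genes for high Myc against no Myc, low Myc against no Myc and high Myc against low Myc, with 95% intervals from limma and filled points where the adjusted p was under 0.05. JAK2 reached -1.71 and SOCS1 -1.95 in high Myc against no Myc, while STAT5A and SOCS2 were called higher in low Myc against no Myc, at 0.70 and 0.84.

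SOCS1 blocks JAK kinases directly and is a brake on interferon and interleukin 4 signals. Its intensity was 163, 976, 507 and 250.2 in high Myc, 1077, 1029.6 and 1117 in low Myc, and 1280.0 and 1664 in no Myc. The low Myc arrays lay close together, whereas the high Myc arrays spread over more than 2 log2 units, with replicate 2 just under the low Myc arrays. The group means of log2 intensity were 8.56 ± 1.14 (SD, n = 4) in high Myc, 10.07 ± 0.06 (n = 3) in low Myc and 10.51 ± 0.27 (n = 2) in no Myc. SOCS1 was 3.87-fold lower in high than in no Myc (log2 difference -1.95 ± 0.58, adjusted p 0.0400). Leaving out 1 array at a time lost this call in 8 of 9 fits, all but that without high Myc replicate 2, at -2.14 to -1.55 and adjusted p values of 0.0511 to 0.204. Without high Myc replicate 2 the difference was -2.41 (adjusted p 0.00327). Against low Myc it was -1.51 and not called (adjusted p 0.163), and without high Myc replicate 2 it was -1.97 and called (adjusted p 0.0160).

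The probe sets of SOCS1 disagreed. A second probe set followed the one that stands for the gene, with -1.36 for high Myc against no Myc and -1.25 for high Myc against low Myc. It carries the same suffix as that of STAT5B, so signal of a related transcript cannot be told apart. The others read 91.6 to 105 and 20.4 to 27.7 over all 9 arrays and differed by at most 0.14 log2 units between groups. In the fit over all probe sets, none of the 4 was called, and in high Myc against no Myc the adjusted p values of these first 2 were 0.0565 and 0.0624. The median over the 4 gave -0.70 in that comparison, not called (adjusted p 0.0541).

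High Myc replicate 2 differed from its group on other JAK kinases, on BATF and on JCHAIN as well. JAK1, the kinase shared by many cytokine receptors, had 3617 on that array and 1097 to 1247 on the other 3 high Myc arrays. JAK3, which binds the common gamma chain, had 607 against 443.7 or less, and TYK2 had 1122 against 804 or less. BATF, an activation factor of lymphocytes, had 972 against 561 or less, and JCHAIN had 698 against 3527 or more. The part of this array's difference in the SOCS1 and STAT3 results is given by the values without it above.

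SOCS2, which dampens growth hormone signals, was highest in low Myc, like STAT5A. It had intensities of 218, 214, 185 and 200.5 in high Myc, 567, 424 and 599 in low Myc, and 273 and 313 in no Myc. The 3 groups did not overlap, with no Myc between the others. Mean log2 intensity was 7.67 ± 0.10 (SD, n = 4) in high Myc, 9.03 ± 0.27 (n = 3) in low Myc and 8.19 ± 0.14 (n = 2) in no Myc. HBB, a marker from the erythroid and platelet list, read 202 to 256 on the high Myc arrays. The presence of SOCS2 RNA there is thus not shown, and the sizes of its falls in high Myc are not certain. SOCS2 was 2.57-fold lower in high than in low Myc (log2 difference -1.36 ± 0.13, adjusted p 0.00193), and that call held in all 18 alternatives, with an adjusted p of at most 0.0117 when an array was left out. It was 1.79-fold higher in low than in no Myc (0.84 ± 0.16, adjusted p 0.00574). If the library labelled no Myc replicate 1 was left out, this was 0.75 and not called (adjusted p 0.0644). It was 1.43-fold lower in high than in no Myc (-0.52 ± 0.15, adjusted p 0.0344). That last call was lost on leaving out replicate 2, 3 or 4 of high Myc or either array labelled no Myc, at -0.62 to -0.42 and adjusted p values of 0.0518 to 0.221.

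A second probe set of SOCS2 read 49.2 to 93.0 in high Myc, 179 to 314 in low Myc and 77.1 and 93.5 in no Myc. It was called higher in low than in no Myc (1.44) and lower in high than in low Myc (-1.67), but not between high and no Myc (-0.23). The third read 41.3 to 44.5 on all arrays. SOCS2 thus had its low Myc maximum on 2 of 3 probe sets, and high against no Myc was called on 1 of them. With the median over its probe sets, that difference was -0.23 and not called (adjusted p 0.700), and low against no Myc gave 1.44 (adjusted p 0.0101).

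SOCS3, a brake on interleukin 6 family signals, was close in all groups. Its intensity was 113, 107, 111 and 122 in high Myc, 113, 106 and 126 in low Myc, and 113 and 133 in no Myc. The ranges overlapped in all 3 comparisons, and the differences were -0.12, -0.10 and -0.02 in high against no Myc, low against no Myc and high against low Myc. The 95% interval of the first was -0.37 to 0.13. CD3D, a marker from the T and NK cell list, read 108 to 139 on the same arrays. No detection calls were used, so the presence of SOCS3 RNA is not shown. A probe set of SOCS3 near the lowest intensities, at 16.7 to 17.5 in high Myc, 15.7 to 19.2 in low Myc and 22.0 and 40.9 in no Myc, was called lower against no Myc in both comparisons (-0.80 and -0.78). At such a level these arrays carry no statement on presence.

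CISH, a brake on interleukin 2 and growth hormone signals and a classic STAT5 target, was not called either. It had intensities of 229, 191, 167 and 191 in high Myc, 232, 181 and 177 in low Myc, and 257 and 187 in no Myc. All ranges overlapped, and the replicates within each group differed as much as the groups did. The log2 differences were -0.18 for high Myc against no Myc, with a 95% interval of -0.59 to 0.22, and -0.01 for high Myc against low Myc, with an interval of -0.37 to 0.34. Of its other probe sets, both had small positive differences in high Myc against no Myc (0.06 and 0.16). None of the 3 probe sets of CISH was called in any comparison, and the one that stands for it carries the same suffix as that of STAT5B. HBB, a marker from the erythroid and platelet list, read 202 to 274 on the same arrays, so the presence of CISH RNA is not shown.

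**Figure D3:**
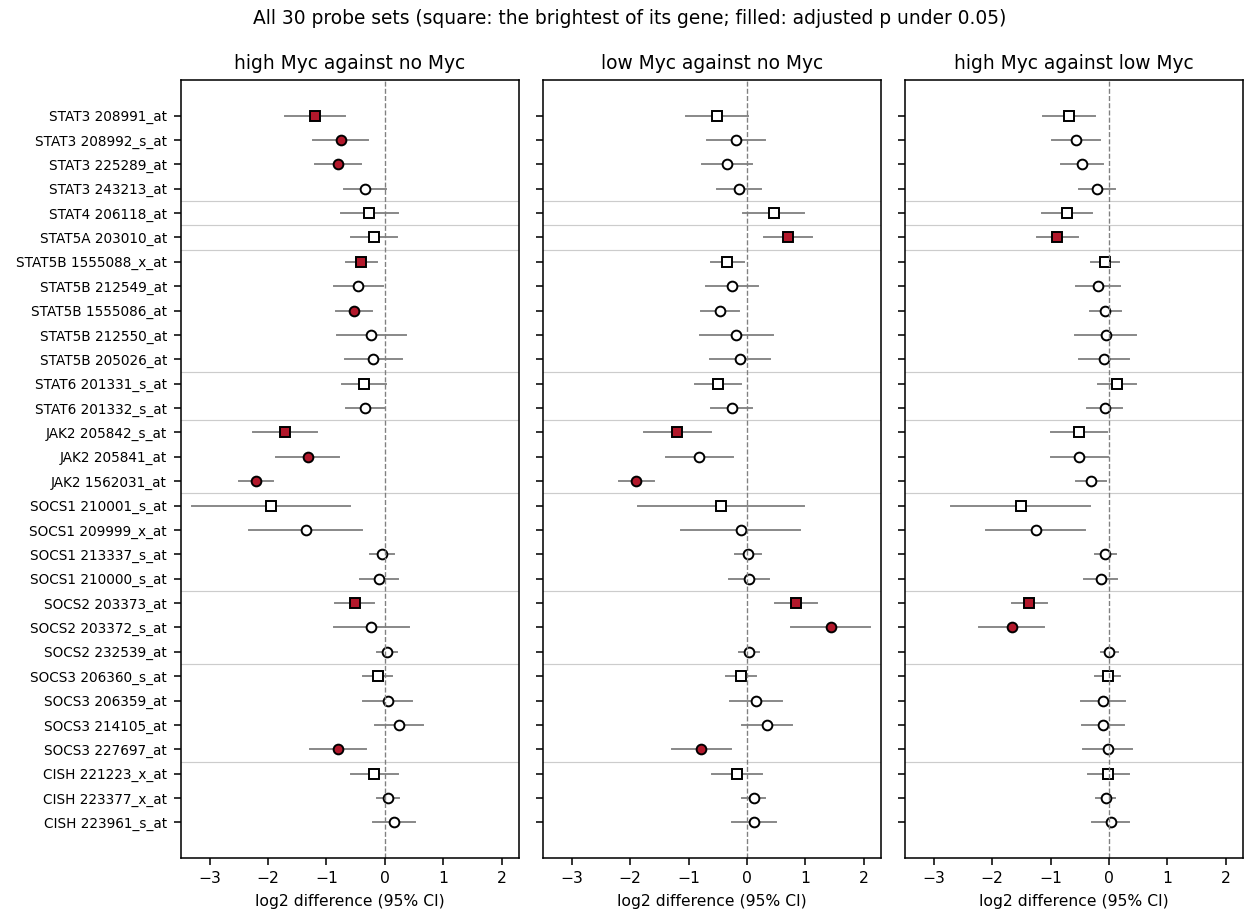
Log2 differences of all 30 probe sets, grouped by gene from top to bottom, for high Myc against no Myc, low Myc against no Myc and high Myc against low Myc, with 95% intervals from limma. Squares are the probe sets that stand for a gene and filled points had an adjusted p under 0.05 over all probe sets; the 3 JAK2 probe sets all lay at -1.32 or lower in high Myc against no Myc, whereas those of SOCS1, SOCS2 and SOCS3 were split.

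Over the 30 probe sets, 0 were called higher and 10 lower in high Myc against no Myc, where 17.0% of all probe sets were called, 9.24% higher and 7.79% lower. Low Myc against no Myc had 3 higher and 3 lower, where 14.4% were called, 6.73% higher and 7.66% lower. High Myc against low Myc had 0 higher and 3 lower, where 1.57% were called, 1.04% higher and 0.525% lower.

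Promoter sequence is shown for CISH because it is a textbook STAT5 target, and for STAT5A because, like SOCS2, it was highest in low Myc. STAT5A had 3 windows, and the one shown is the one with a match. The windows are the 250 bases before the start site in RefSeq, build GRCh38.p14. Of the 10 genes, 9 had an entry, with 16 windows in all. SOCS2 had no entry, so its promoter was not searched. Capitals mark matches to TTCNNNGAA, the palindrome bound by STAT5 and other STAT dimers, and to the form with 4 bases between TTC and GAA, the spacing preferred by STAT6. Both strands were searched, on which these palindromes read the same, and a site cannot match both. CISH lies at chr3:50611775-50612024 on the minus strand and STAT5A at chr17:42287189-42287438 on the plus strand.
CISH: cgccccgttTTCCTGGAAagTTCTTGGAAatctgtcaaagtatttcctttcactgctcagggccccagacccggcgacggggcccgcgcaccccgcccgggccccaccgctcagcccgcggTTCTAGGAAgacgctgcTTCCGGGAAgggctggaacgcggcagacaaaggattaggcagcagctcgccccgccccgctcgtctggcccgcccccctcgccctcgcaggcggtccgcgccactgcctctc
STAT5A: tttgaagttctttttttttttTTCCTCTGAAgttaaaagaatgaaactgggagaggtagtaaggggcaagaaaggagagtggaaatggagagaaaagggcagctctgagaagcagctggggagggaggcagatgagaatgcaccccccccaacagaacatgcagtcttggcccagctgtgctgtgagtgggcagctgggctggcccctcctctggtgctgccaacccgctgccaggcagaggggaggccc
The CISH window held 4 copies of TTCNNNGAA, whose first bases lay 241, 230, 129 and 112 bases before the start site. No other window of the group held this motif, which 6.57% of 35116 RefSeq windows of this length held, 5 of them with at least 4 copies. STAT5A held the single copy of the form with the longer spacer, 229 bases before the start, where 5.38% of all windows hold it, and its other windows held neither form. The E-box CACGTG, a sequence bound by MYC, was in 0 of the 16 windows and in 6.34% of all windows. Matches describe the letters of these windows and not binding.

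JAK3 and TYK2, kinases of the same family, also fell in high Myc against no Myc. Of 5 other JAK and STAT genes listed, 3 were measured, and the log2 differences of JAK3 and TYK2 were -0.93 (adjusted p 0.0270) and -0.90 (adjusted p 0.0165). JAK3 lost its call on leaving out replicate 4 of high Myc or either array labelled no Myc (adjusted p 0.0655 to 0.172), and its difference was -0.07 with the median over its probe sets. TYK2 lost it on leaving out either array labelled no Myc (adjusted p 0.0796 and 0.112). Without high Myc replicate 2, all 3 were called lower in high Myc against no Myc and in high Myc against low Myc. With all 9 arrays, limma called none of the 3 in the other comparisons, and the number with an unadjusted p under 0.05 was 0 in low Myc against no Myc and 2 in high Myc against low Myc. The list's median log2 difference was -0.90 in high against no Myc, -0.12 in low against no Myc and -0.68 in high against low Myc, against -0.01, 0.00 and 0.00 over all genes.

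ELOC and SOCS7, from the list of other SOCS proteins and their ubiquitin ligase, rose in both comparisons with no Myc. Of 8 other SOCS and ligase genes, 4 rose and none fell in high Myc against no Myc, 2 rose in low Myc against no Myc, and limma called 0 in high Myc against low Myc, with 0 at an unadjusted p under 0.05. Of all genes, 14.2%, 11.3% and 2.33% were called higher in these comparisons. ELOC, the elongin C subunit that docks the SOCS box, had 2511 to 3097.5 in high Myc, 1892 to 3007.5 in low Myc, and 1163 and 1176.5 in no Myc. It was 2.37-fold higher in high Myc and 2.14-fold higher in low than in no Myc, and SOCS7 was 2.18-fold and 1.88-fold higher. Both held with each array left out in turn. The list's medians were 0.48, 0.39 and 0.15 in high against no, low against no and high against low Myc. Its other calls were RNF7 (0.55) and ELOB (0.42), which were lost in 7 and 5 of the 9 fits with an array left out, as far as adjusted p values of 0.303 and 0.144 without a no Myc array.

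Of 12 measured phosphatases, adaptors and PIAS inhibitors, 1 rose and 3 fell in each comparison with no Myc, and limma called 0 between high and low Myc, where 5 had an unadjusted p under 0.05. The shares of all genes called were 23.2%, 19.8% and 3.60% in high against no, low against no and high against low Myc. In high Myc against no Myc, 2 of the 4 calls were left without either no Myc array. In low Myc against no Myc, limma called 0 on leaving out replicate 1 of low Myc or the library labelled no Myc replicate 1, with 4 at an unadjusted p under 0.05 in each. That count was 2 without replicate 3 or 4 of high Myc or replicate 2 of no Myc. The medians in high against no, low against no and high against low Myc were -0.34, -0.14 and -0.16. PTPN6, the phosphatase SHP-1 that quenches JAK signals, had 626 to 1182 in high Myc, 940.4 to 1587 in low Myc, and 3497 and 2415 in no Myc. It was 3.62-fold lower in high than in no Myc, which held with each array left out in turn. It was 2.40-fold lower in low than in no Myc (adjusted p 0.0196), which was lost on leaving out replicate 1 of low Myc (adjusted p 0.0556) or the library labelled no Myc replicate 1 (-0.99, with adjusted p 0.179). PTPN11, the phosphatase SHP-2 that relays growth signals, rose by 0.90 in high Myc against no Myc, a call lost on leaving out replicate 2 of no Myc (0.74, adjusted p 0.110).

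**Figure D4:**
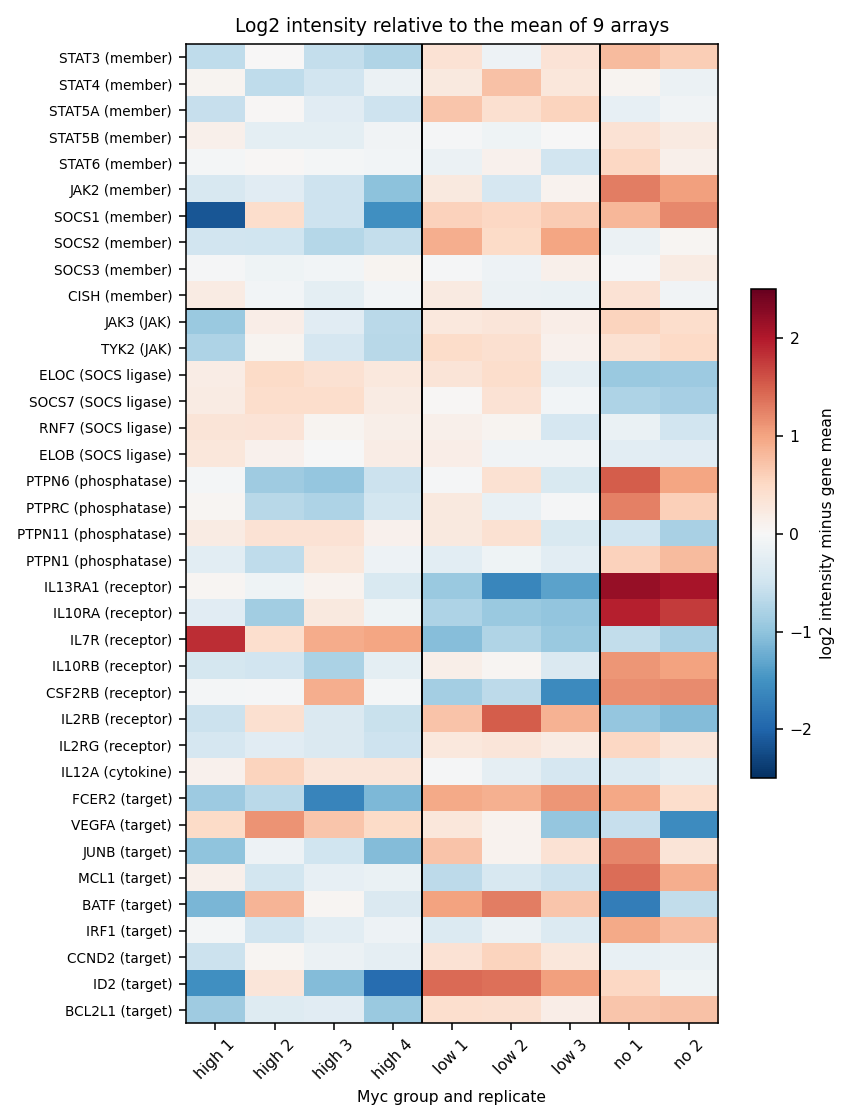
Log2 intensity of the 10 genes (above the line) and of the named genes of the pathway lists (below it) on each of the 9 arrays, as the difference from the gene's mean over all arrays, red above and blue below. IL13RA1 and IL10RA are deep red on both no Myc arrays and on no other, and high Myc replicate 2 differs in colour from the other high Myc arrays at SOCS1, JAK3, TYK2, BATF and ID2.

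IL13RA1 and IL10RA, chains of the receptors for interleukins 13 and 10, fell in both comparisons with no Myc, and IL7R rose in high Myc. Of 22 chains, 1 rose and 5 fell in high Myc against no Myc, 1 rose and 6 fell in low Myc against no Myc, and 2 rose and 2 fell in high Myc against low Myc. The 6 and 7 calls against no Myc are near the shares of all genes, 23.2% and 19.8%, while the 4 in high Myc against low Myc stand beside 3.60% of all genes. Without high Myc replicate 2, that last comparison had 4 higher and 5 lower, and low Myc against no Myc had 4 higher and 6 lower. The shares of all genes called in that fit are not given here. The list's medians were near those of all genes, at -0.13, -0.07 and -0.09 in the same order. IL13RA1, which pairs with the interleukin 4 receptor, had 279.8 to 387 in high Myc, 117 to 190.5 in low Myc, and 1649 and 1512 in no Myc. It was 4.60-fold lower in high Myc and 10.7-fold lower in low than in no Myc, log2 differences of -2.20 and -3.42. With the median over its probe sets these were -1.44 and -2.23, both called. IL10RA, the ligand-binding chain for interleukin 10, fell in both, with log2 differences from no Myc of -2.10 in high Myc and -2.74 in low Myc.

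IL7R, the interleukin 7 receptor that signals to STAT5, had 1205, 447, 634 and 667 in high Myc, 159, 199.5 and 175 in low Myc, and 218 and 191 in no Myc. It was 3.39-fold higher in high than in no Myc and 3.90-fold higher than in low Myc. IL2RB, the interleukin 2 receptor beta chain, which also signals to STAT5, had 511, 980.0, 576 and 509 in high Myc, 1223, 2135 and 1359 in low Myc, and 378.5 and 352 in no Myc. It was 4.18-fold higher in low than in no Myc, and all 3 groups were apart, with low Myc highest as for STAT5A and SOCS2. IL2RB was also lower in high than in low Myc (-1.30, adjusted p 0.0342), a call lost without any 1 array other than high Myc replicate 2 (adjusted p 0.0607 to 0.105).

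Among 17 measured STAT-activating cytokines, IL12A alone was called, and only in high Myc against no Myc, where it rose by 0.60 from a low level (59.4 to 80.9 in high Myc and 43.6 and 46.4 in no Myc). It was lost without either no Myc array (adjusted p 0.119 and 0.0637). In the other comparisons limma called 0 of the 17, with 0 and 1 at an unadjusted p under 0.05. Of all genes, 23.2% were called in high against no Myc, 19.8% in low against no Myc and 3.60% in high against low Myc. The medians were -0.02, 0.06 and -0.03 in high against no, low against no and high against low Myc.

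Of 19 measured STAT-linked target genes, 2 rose and 5 fell in high Myc against no Myc, 2 rose and 2 fell in low Myc against no Myc, and 4 fell in high Myc against low Myc. Of all genes, 23.2%, 19.8% and 3.60% were called in these comparisons, and the count in low against no Myc is near that share. In high Myc against no Myc, 2 rose and 9 fell without high Myc replicate 2. In low Myc against no Myc, 0 rose and 2 fell without the library labelled no Myc replicate 1 or without replicate 1 or 2 of low Myc. The 4 falls in high Myc against low Myc were FCER2, BCL2L1, CCND2 and ID2. FCER2 alone was called there without either no Myc array, without replicate 1 or 4 of high Myc or without replicate 1 or 2 of low Myc, and 2 were called without replicate 3 of high or low Myc. Without high Myc replicate 2, 8 were called, and the shares of all genes called in the fit without this array are not given here. The medians over the list were -0.45, 0.08 and -0.15 in high against no, low against no and high against low Myc. FCER2, the low-affinity IgE receptor CD23 and a STAT6 target in B cells, had 707, 831, 424 and 611 in high Myc, 2553, 2471 and 2867.5 in low Myc, and 2590.5 and 1788 in no Myc. It was 3.44-fold lower in high than in no Myc and 4.20-fold lower than in low Myc, and both calls held with each array left out in turn. MCL1, a survival factor, fell in both, with log2 differences from no Myc of -1.33 in high Myc and -1.69 in low Myc. With the median over its probe sets these were -0.81 and -0.83, both called. IRF1, an interferon-response factor, fell by 1.13 in low Myc against no Myc. Its mean log2 intensity was about as low in high Myc, at 8.81 in high, 8.76 in low and 9.89 in no Myc.

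BATF rose by 2.15 in low Myc against no Myc (adjusted p 0.0191), at 866 to 1301 in low Myc and 164 and 350.8 in no Myc. This was lost on leaving out replicate 1 or 2 of low Myc (adjusted p 0.0537 and 0.0563) or the library labelled no Myc replicate 1 (1.60, with adjusted p 0.185). ID2, an inhibitor of helix-loop-helix factors, fell in high Myc against low Myc (log2 difference -2.32, adjusted p 0.0312). That call was lost in 8 of the 9 fits with 1 array left out, all but that without high Myc replicate 2, at adjusted p values of 0.0545 to 0.109.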

How the data were processed

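Total RNA of P493-6 cells was measured on 9 Affymetrix arrays. The authors deposited RMA values as intensity on a linear scale, per the submitters' processing notes for RMA and the values for the scale, with a version not given in the sources used here. Since RMA makes the distributions of all arrays alike after background subtraction, differences are relative to the rest of an array, and total RNA per cell is not seen. No detection calls were used, and the number of arrays limits the precision. The log2 of the deposited intensity was used for every test. No column of another sample was present (0 columns).

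Of the probe sets, 41097 had 1 gene symbol in the platform annotation, 1801 had several and 11777 had none. Symbols of 41043 were updated through the Entrez identifier. The probe set with the highest mean log2 stood for a gene, since 10523 genes had several. Group means of all 9 arrays entered 1 model in limma 3.58.1 under R 4.3.3 (lmFit, contrasts, eBayes without trend), two-sided, with Benjamini-Hochberg adjustment over all 19775 genes. The call threshold was an adjusted p of 0.05. A second fit covered all 54675 probe sets. The procedure was tested on simulated data.

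The genes, the pathway lists and the marker lists were chosen with earlier results of these data known. Named pathway genes were up to 4 called genes per list and comparison, by size of the difference, and others were named as the markers and the account of high Myc replicate 2 required. Some genes of the lists are not reported here. The labels do not say whether same-numbered arrays belong together, and the correlations of their deviations did not settle it. The arrays were therefore not paired in the main fit. Alternatives were repeated quantile normalization, median centring, a filter at a mean log2 of 5, array weights, a prior both trended and robust, the median over probe sets, a fit to the 2 groups alone, the replicate block, a threshold of 0.01 and each array left out. Running them on the named pathway genes and the list counts was chosen after seeing the data.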

Additional observations from a re-analysis of the deposited data

How the results depend on the processing

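JAK2 and STAT3 in high Myc against no Myc and SOCS2 in high Myc against low Myc were called in all 18 alternatives. Over the 10 called results of single genes, 135 of the alternative values kept the call and 45 lost it, none with a change of direction. Among 20 results not called, 339 stayed so, 9 became called and 12 changed sign without a call.

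The genes called were 5, 3 and 2 in high against no Myc, low against no Myc and high against low Myc. With 1 array left out the counts ranged from 2 to 4, 0 to 4 and 1 to 4, and those of probe sets from 2 to 10, 1 to 6 and 1 to 7. The 0 came from limma when the library labelled no Myc replicate 1 was left out, where 3 genes had an unadjusted p under 0.05. High against no Myc had 3 genes with the median over probe sets, 3 with only the 2 groups compared and 2 at an adjusted p under 0.01. High against low Myc had 4 genes with array weights and 1 at an adjusted p under 0.01. At that threshold the probe sets called were 4, 2 and 1. The replicate block gave 2 genes and 4 probe sets in high against no Myc, and 1 gene and 0 probe sets in high against low Myc, where 9 probe sets had an unadjusted p under 0.05. Same-numbered arrays had deviations correlated at -0.31 to 0.47, and differently numbered arrays at -0.47 to 0.44. With so few arrays per group, this cannot decide whether the numbers pair the arrays.

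The 12 changes of sign, none of them called, fell on CISH, SOCS3 and STAT6. With the median over probe sets, CISH had 0.051 in high against no Myc and 0.12 in low against no Myc, and SOCS3 had 0.086 and 0.19. With 1 array left out, CISH ranged from -0.092 to 0.11 in high against low Myc, from -0.41 to 0.047 in high against no Myc and from -0.40 to 0.059 in low against no Myc. SOCS3 ranged from -0.082 to 0.044 in high against low Myc and from -0.22 to 0.021 in low against no Myc, and STAT6 from -0.016 to 0.28 in high against low Myc. The cause was not tested.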
